A study of Mus musculus with 4 samples.

Results

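This account covers the cytosolic ribosomal proteins in mouse embryonic fibroblasts whose total RNA was hybridized to 4 Agilent microarrays with a single dye (Cy3). Members were the array's gene names of the form Rpl or Rps followed by a number and at most a short suffix, together with Rplp0, Rplp1, Rplp2 and Rpsa, and without the Rps6k kinases. The rule found 82 of the 27745 gene names on the array, carried by 136 of 41174 probes. They comprised 32 small-subunit names and 50 large-subunit names. Of these, 81 were well above background on all 4 arrays, and Rpl3l on none.

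Each condition had 1 array. In the cells called four-factor here, Oct3/4, Sox2, Klf4 and c-Myc had been introduced by transduction, and they were kept for 72 hours at 21% or at 5% O2, and their source name gives day 4. Untransduced fibroblasts were kept for 10 days at 21% or at 5% O2. The labels name neither mouse strain nor embryonic age, and no control transduction is among the 4 samples. The arrays lay on 2 slides, one for each culture, so the 4 factors, the time in culture and the slide cannot be told apart in any comparison between cultures. No difference between 2 arrays had a replicate check or a p-value.

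Ribosomal proteins join ribosomal RNA to form the small subunit, which decodes the message, and the large subunit, which joins amino acids. Their genes are transcribed in every dividing cell at very high level. Most of their messages begin with a C followed by an uninterrupted run of C and T, the terminal oligopyrimidine tract, through which mTOR and the RNA-binding protein Larp1 set how much of the message is translated. The arrays measured message abundance and not translation. Mammalian genomes also hold many processed copies of these genes with nearly the same sequence, so a probe may take up signal from more than its named gene.

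The start-site sequences are shown first because the C/T run is the feature the messages are known for, and because members with the largest and the smallest culture differences can be compared in it. RefSeq promoters (build GRCm38.p6) were found for 62 of the 82 members. Each line gives 12 bases before the listed start and 18 from it, 5′ to 3′ on the gene's strand. Capitals mark the longest C/T run that held the start or came within 3 bases of it. The first 9 genes were at least 2-fold higher in four-factor cells at 5% O2, and the next 4 were among the 5 members with the lowest values in that comparison.
Rpl36al, chr12:69184050-69184079, minus strand: tcccgtcgCTCaggttcagttccgacttcc
Rpl10a, chr17:28328459-28328488, plus strand: gcgCCCCCCCagcggccgcaaactgcagcg
Rps6, chr4:86857350-86857379, minus strand: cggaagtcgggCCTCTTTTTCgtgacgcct
Rpl24, chr16:55966263-55966292, plus strand: aagctgttgCTaggaaacagactgggcgct
Rpl37, chr15:5116601-5116630, plus strand: ttcctgggcggaagCTTatccacaggaagt
Rps26, chr10:128626489-128626518, minus strand: gggcaagccgccggaTCCTCTTTCgagtct
Rpl22l1, chr3:28805496-28805525, plus strand: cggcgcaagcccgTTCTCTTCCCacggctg
Rpl31, chr1:39367839-39367868, plus strand: cctcctcgCCTCCCCgtgacccggaagttg
Rpl14, chr9:120571505-120571534, plus strand: cgggCCCTCTCTCTTCTCgctgagcgccgc
Rps18, chr17:33955648-33955677, minus strand: gtcacttccgCTCTCTCTTCCacaggaggc
Rpl28, chr7:4792953-4792982, plus strand: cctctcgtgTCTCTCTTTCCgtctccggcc
Rpl7a, chr2:26910795-26910824, plus strand: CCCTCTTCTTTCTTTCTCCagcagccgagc
Rps2, chr17:24720051-24720080, plus strand: cagtcgagaTCTCgcgcttcttggagcact

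Rps6 shows the textbook form, a C/T run of 10 bases that begins with C beside the listed start. The run of 9 bases in Rps26 begins with T, 3 bases past the listed start. Runs of 2 and 3 bases in Rpl24 and Rpl36al stand beside runs of 11 bases in Rps18 and Rpl28, so long and short runs occurred on both sides of the comparison. A run of at least 5 bases was present in 31 of 62 members (50%), against 29.5% of all genes in the table. A run of at least 8 bases was present in 35.5% of members and 9.25% of all genes. Where a gene had several listed starts, as for 10 members, the one with the longest run was used. Listed starts can lie some bases from the start used in these cells, so a short run here says only that the letters are not at the listed position.

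Members with a run of at least 5 bases (31 genes) had median four-factor differences of 0.50 and 0.59 log2 units at 21% and 5% O2. The 30 measured members with shorter runs had 0.43 and 0.51. The oxygen medians of these 2 sets were 0.05 and 0.05 in four-factor cells, and -0.07 and -0.07 in untransduced fibroblasts. Both sets had medians of the same sign in each comparison, as a description with no test.

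The 250 bases before each start were searched on both strands for 3 letter strings. CCGGAAG, a core of the sites bound by ETS-family factors, was found in 18 of 62 members (29%) and in 7.83% of all genes. CACGTG, the E-box bound by the MYC family among others, was found in 5 members (8.06%) and in 6.86% of all genes. TATAAA was found in 4 members (6.45%) and in 14.3% of all genes. None of the strings contains another. Matches occurred at both ends of the culture comparison at 5% O2. Among the lowest 5 members, Rps18 and Rps2 had CCGGAAG, and Rps2 also had TATAAA. Matches in members at least 2-fold higher there are printed next, with the match in capitals. The first 3 are CCGGAAG, the next is CACGTG and the last is TATAAA.
Rps6, chr4:86857441-86857470, minus strand: gttaatctacgcCCGGAAGtaacgcccctc
Rps26, chr10:128626703-128626732, minus strand: tttaatcttccgCCGGAAGgttaaatagtt
Rpl37, chr15:5116578-5116607, plus strand: caccaagacccgCCGGAAGtagtttcctgg
Rpl14, chr9:120571337-120571366, plus strand: ccaagctcactgCACGTGtctgaggagaag
Rpl22l1, chr3:28805468-28805497, plus strand: agcacgtttttaTATAAAagcgtgcgtgcg

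These matches began 91, 214, 23, 168 and 28 bases before the listed start, and in Rpl22l1 a match on the other strand overlaps the one shown. Median four-factor differences at 5% O2 were 0.54 log2 units in the 18 members with CCGGAAG and 0.54 in the 43 measured members without it. With CACGTG the median was 0.39 (5 genes), and without it 0.54 (56 genes). A match is a string of letters and not a measured binding site.

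A value is the log2 processed signal with the 75th percentile of its array subtracted, and a gene is given by its brightest probe. On the 2 arrays of four-factor cells 68.1% and 68.4% of probes were well above background (21%, then 5% O2), and for the untransduced cultures it was 57.1% and 58.3%. No spot was saturated, and no member spot was an outlier. All 14 fibroblast markers were well above background on every array. Macrophage markers were well above background for 13 of 14 on both untransduced arrays and for 6 of 14 on the others. Between replicate spots of bright probes the standard deviation was 0.041 to 0.047 log2 units, which puts the spot error of a single difference near 0.06. That is the error of a spot, not of a culture.

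The oxygen comparison asks what growth at 5% instead of 21% O2 did in each culture. Ribosomal protein messages differed little with oxygen, and in opposite directions in the 2 cultures. In four-factor cells 64 of 81 members were higher at 5% O2, against 48.2% of all measured genes, with a median of 0.05 log2 units (1.04-fold) against -0.01 over all genes. In untransduced fibroblasts 11 of 81 were higher, against 44.8% of all genes, with a median of -0.07 (0.95-fold) against -0.04. The medians are about as large as the spot error of a single gene. With normexp background correction the order in four-factor cells turned, with a median of 0.02 for members against 0.05 over all genes.

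The direction in untransduced fibroblasts depended on the scaling. Quantile normalization gave 43 of 81 members higher in four-factor cells and 53 of 81 in untransduced ones, and cyclic loess gave 72 and 66. Spike-in scaling gave 80 and 2, and it put the median of all genes at 0.14 and -0.11 in the same comparisons. With the 75th percentile over probes above background on all arrays, 74 and 23 members were higher. The opposite directions were thus present under 3 of these 5 scalings and absent under quantile and loess, which adjust by signal.

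**Figure D1:**
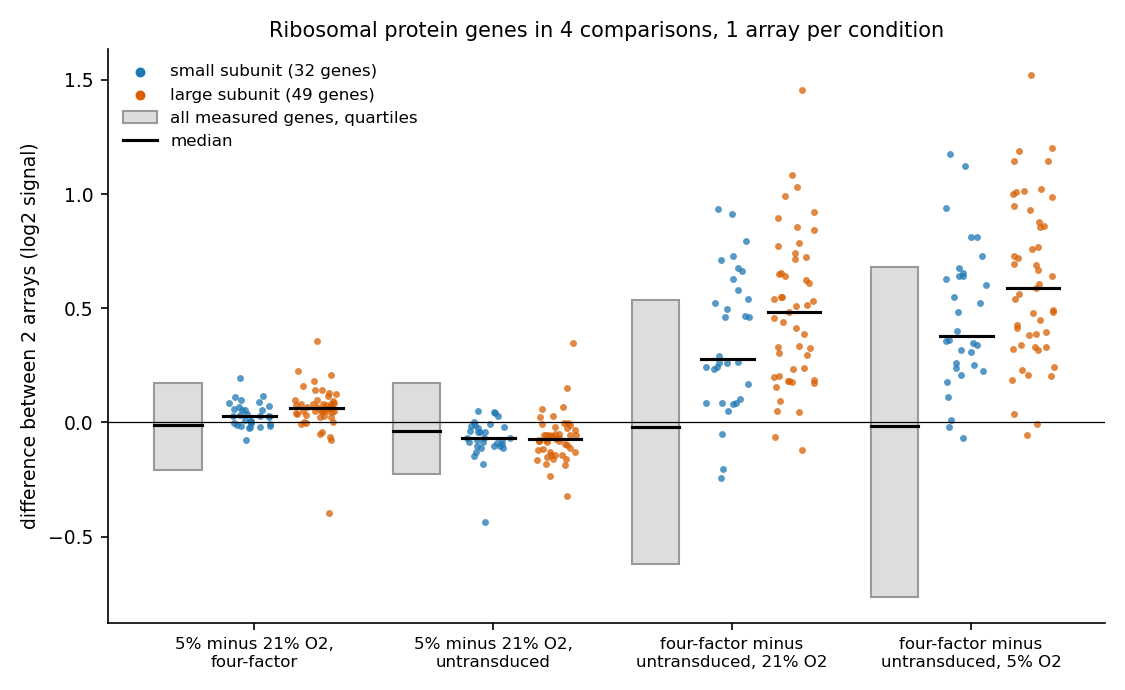
Difference between 2 arrays in log2 signal (vertical axis) for each measured ribosomal protein gene in 4 comparisons, small subunit in blue and large subunit in orange, with the quartiles of all measured genes as grey boxes and medians as black lines. Oxygen differences lie close to 0, while most members lie above 0 in four-factor against untransduced cells, with medians of 0.46 and 0.52 over all members.

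Few members differed with oxygen by at least 0.322 log2 units, the smaller of the 2 sizes at which genes were counted. In four-factor cells 1 was higher (13.9% of all genes were) and 1 lower (16.1%). In untransduced fibroblasts 1 was higher (15.4%) and 1 lower (16%), and Rpl36al fell just short of the line at -0.321. No member reached 2-fold in either direction in either culture, where 2.32% and 4.27% of all genes were at least 2-fold apart. The standard deviation over members was 0.09 in both cultures, against 0.38 and 0.44 over all genes.

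Rpl22l1, a large-subunit paralogue of Rpl22, was the member past 0.322 upward at 5% O2 in four-factor cells. Its values were 6.24 at 21% and 6.60 at 5% O2 in four-factor cells, and 5.52 and 5.58 in untransduced fibroblasts. The difference with oxygen was 0.36 in the first culture and 0.06 in the second. Rpl22 itself differed by 0.10 and -0.12. Rpl22 can bind and repress the message of its paralogue, as background.

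Rpl28, a large-subunit protein, was the member past 0.322 downward at 5% O2 in four-factor cells. Its values were 7.47 at 21% and 7.08 at 5% O2 there, against 7.14 and 7.14 in untransduced fibroblasts. By its own values only the four-factor array at 21% O2 stood apart from the other 3, and the gene has 1 probe (mm8, chr7:4396414-4396473). Its four-factor differences were 0.33 at 21% and -0.06 at 5% O2, against medians of 0.46 and 0.52 over members. Set beside other members, it was thus among the 5 lowest in this comparison at 5% O2 and not at 21%.

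Rps27l, a paralogue of the small-subunit protein Rps27 that p53 can induce, was the member past 0.322 downward at 5% O2 in untransduced fibroblasts. Its values were 6.53 at 21% and 6.09 at 5% O2, a difference of -0.44. In four-factor cells they were 7.05 and 7.03. Rps27 differed by -0.01 and 0.03 in four-factor and untransduced cells, so the paralogues parted at 5% O2 in the untransduced culture. Rpl30, a large-subunit protein, was the member past 0.322 upward there, at 4.40 and 4.75, with 5.86 and 5.94 in four-factor cells.

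Rpl3, which lies by the site of peptide bond formation, was 0.23 higher at 5% O2 in four-factor cells. Rpl36al, Rps6 and Rpl14 were higher by 0.21, 0.19 and 0.18 there. Beside Rpl28, the lowest members in four-factor cells included Rps15, Rpl21 and Rplp0, at -0.08, -0.08 and -0.06. In untransduced fibroblasts Rpl27a, Rpl31, Rpl22l1 and Rpsa followed Rpl30 with 0.15, 0.07, 0.06 and 0.05. The lowest after Rps27l were Rpl36al, Rpl21, Rpl18 and Rpl37, at -0.32, -0.23, -0.19 and -0.18. Most of these exceed the spot error, although none has a replicate culture behind it.

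Several of these directions rest on the brightest probe. Of 38 genes with at least 2 probes above background on all arrays, the brightest and the dimmest probe had opposite signs in 13 in four-factor cells and in 11 in untransduced fibroblasts. In untransduced fibroblasts the other probe of Rpl27a gave -0.29 and that of Rpsa -0.40. The other probe of Rpl37 gave 0.08 there. For Rpl21 the other probe, which carries its RefSeq accession, gave 0.09 in four-factor cells and 0.16 in untransduced ones.

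Opposite signs were frequent. In 55 of the 81 members (67.9%) the value at 5% O2 was higher with the 4 factors and lower at 5% O2 in untransduced ones, against 24% of all genes measured on 4 arrays. Across the 81 genes Pearson's r between the oxygen differences of both cultures was 0.03, as a description over genes that share the same arrays. The difference between the cultures' oxygen effects was above 0 in 73 of 81 members (52.4% of all genes) with a median of 0.12 against 0.02. With quantile normalization 36 of 81 were above 0, and with cyclic loess 43. Other bright genes had similar values. With mean log2 signals from 6 to 7 and over 7, their median differences between effects were 0.16 and 0.13, against 0.12 and 0.12 in members. Oxygen medians of those other genes were 0.01 and 0.03 in four-factor cells and -0.14 and -0.11 in untransduced ones. The opposite signs were thus not particular to ribosomal proteins among bright genes.

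**Figure D2:**
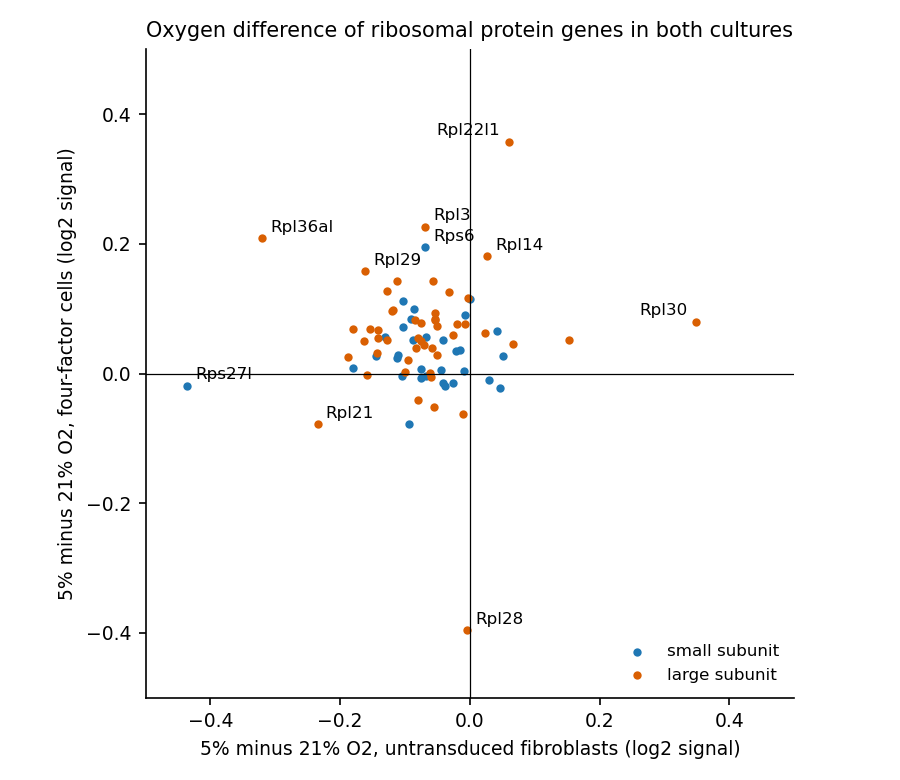
Difference between 5% and 21% O2 in log2 signal for each of 81 ribosomal protein genes, in untransduced fibroblasts (horizontal axis) and in four-factor cells (vertical axis), small subunit in blue and large subunit in orange. Most genes lie above 0 on the vertical axis and below 0 on the horizontal axis, and Rpl36al (-0.32 and 0.21), Rps27l, Rpl28, Rpl30 and Rpl22l1 lie outside the main cluster.

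Rpl36al had the most opposed values. They were 5.29 at 21% and 5.50 at 5% O2 in four-factor cells, and 4.30 and 3.98 in untransduced fibroblasts, a difference between effects of 0.53. Rpl29, Rpl3, Rps6 and Rpl27 followed with 0.320, 0.30, 0.26 and 0.26. At least 0.322 lay between the effects of 2 members in the upward direction, Rpl36al and Rps27l, and of 1 in the downward direction, Rpl28 (19.9% and 19.8% of all genes).

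Macrophage markers moved with oxygen in the untransduced culture. All 13 measured there were higher at 5% O2, and the log2 of their summed signal was 4.07 at 21% and 5.21 at 5% O2. On the four-factor arrays the sum was -0.11 and -0.41, and the 6 measured markers were lower at 5% O2. The 14 fibroblast markers had a summed level of 10.57 and 10.53 in untransduced fibroblasts. Their part in the ribosomal protein values was not tested, and with bulk RNA fewer cells of a type and less RNA per cell cannot be told apart.

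Set beside the untransduced cultures, ribosomal protein messages were higher in four-factor cells at both oxygen levels. At 21% O2 the median difference was 0.46 log2 units (1.37-fold) against -0.02 over all genes, and 76 of 81 members were higher (49% of all genes). At 5% O2 it was 0.52 (1.44-fold) against -0.02, and 77 of 81 were higher (49.3%). Higher by at least 0.322 were 47 and 60 members (33.6% and 37% of all genes), and none was lower by that much (36% and 38.7%). The difference was broad but small: 3 and 10 members (3.7% and 12.3%) were at least 2-fold higher, while 11.8% and 17.1% of all genes were. None was 2-fold lower, against 16.6% and 20% of all genes. Other bright genes were also higher in four-factor cells. With mean log2 signals over 7 their medians were 0.26 and 0.39, against 0.20 and 0.33 in the 43 members with such signals.

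Under cyclic loess 57 and 53 of 81 members were higher at 21% and 5% O2, and under quantile normalization 69 and 63. The medians were 0.21 and 0.17 under loess, 0.25 and 0.23 under quantile normalization, and 0.86 and 1.14 under spike-in scaling. Spike-in scaling put the median of all genes at 0.38 and 0.61. The median of members stayed above that of all genes in both comparisons under each setting tried.

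**Figure D3:**
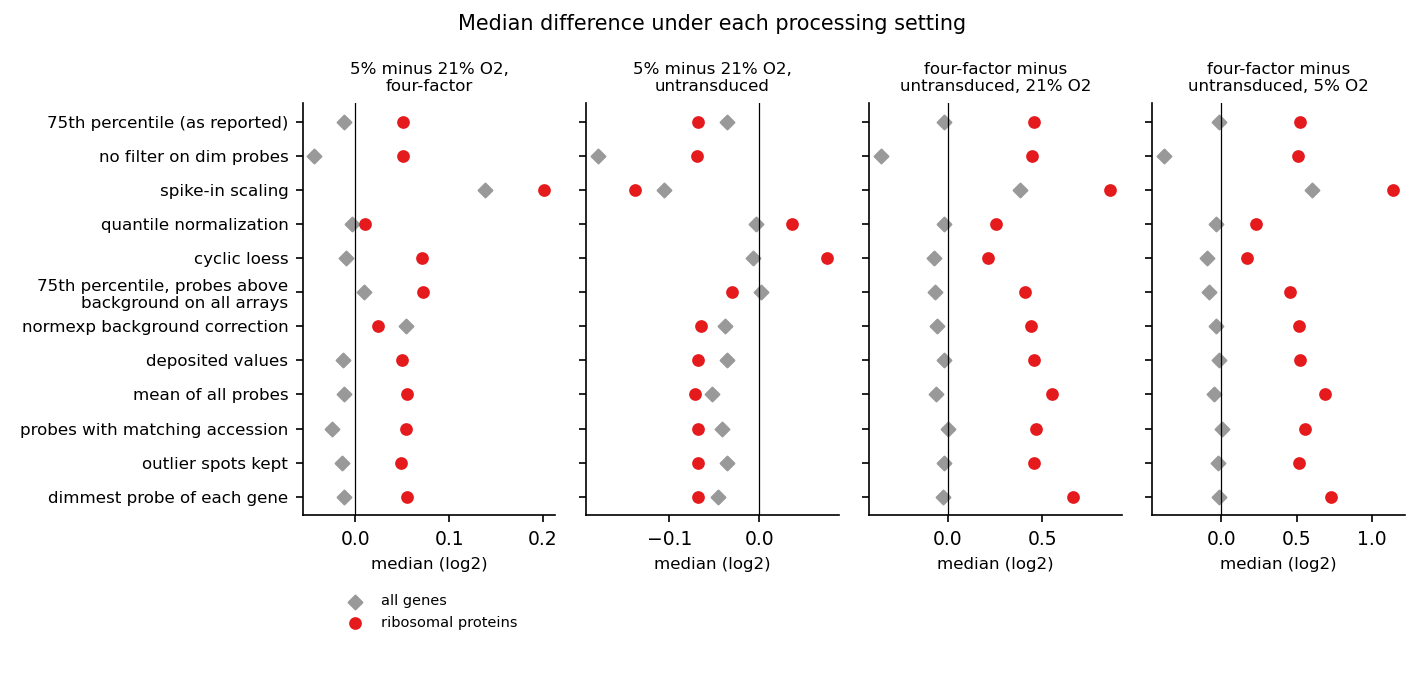
Median difference in log2 signal (horizontal axes, a separate scale in each panel) of all measured genes in grey and of ribosomal protein genes in red, for 4 comparisons and each processing setting. The red points lie to the right of the grey ones in both comparisons between cultures, and change sign in the oxygen comparison of untransduced fibroblasts under quantile normalization (0.04) and cyclic loess (0.08).

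The medians of the 2 subunits had the same sign and different sizes. Small-subunit members (32 genes) had medians of 0.28 and 0.38 at 21% and 5% O2, and 29 and 30 of them were higher. Large-subunit members (49 genes) had medians of 0.49 and 0.59, with 47 and 47 higher. Median oxygen differences were 0.03 and -0.07 for the small subunit and 0.06 and -0.07 for the large. Mean signal moved with this split, with a median of 7.21 in the small subunit and 6.84 in the large, and its part was not tested.

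Among small-subunit proteins, Rps6, the ribosomal substrate of the S6 kinases, was 6.57 and 6.76 in four-factor cells and 5.65 and 5.59 in untransduced fibroblasts (21%, then 5% O2). Rps26, which contacts the message near the exit channel, was 6.74 and 6.75 against 5.80 and 5.62. Both were higher on each four-factor array than on either untransduced array, by 0.91 and 1.18 for Rps6 and by 0.93 and 1.12 for Rps26. Rpsa, known also as the laminin receptor precursor, was higher by 0.68 and 0.65. Rps15, which reaches into the decoding region, was higher by 0.79 and 0.81.

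Rps18 and Rps14 stood at the other end. Rps18 was 8.46 and 8.54 in four-factor cells and 8.70 and 8.61 in untransduced fibroblasts, differences of -0.24 and -0.07. Rps14 was 8.02 and 8.12 against 8.22 and 8.13, differences of -0.21 and -0.02. Rps2, which lies near the entry of the message, was -0.05 and 0.01. At 21% O2 the first 2 were lower in four-factor cells by more than the spot error, whereas at 5% O2 only Rps18 was, by little.

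In the large subunit Rpl30 had the highest difference at 21% O2 and Rpl36al at 5% O2. Rpl30 differed by 1.46 and 1.19, its values at 21% and 5% O2 being those given above (mm8, chr15:34385106-34385165). Rpl10a was 5.73 and 5.85 in four-factor cells and 4.65 and 4.65 in untransduced fibroblasts, differences of 1.08 and 1.20 (mm8, chr17:28057069-28058130). Rpl31, by the exit of the peptide tunnel, differed by 1.03 and 1.01. Rpl30, Rpl10a and Rpl31 were the 3 members at least 2-fold higher at 21% O2.

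At 5% O2 the set of 10 also held Rpl36al, Rps6, Rpl24, Rpl37, Rps26, Rpl22l1 and Rpl14. Rpl36al was higher by 0.99 at 21% and 1.52 at 5% O2 (mm8, chr12:70101711-70101770). Rpl24, which forms a bridge to the small subunit, was higher by 0.92 and 1.15, and Rpl37 by 0.89 and 1.14. Rpl14 was higher by 0.85 and 1.01, and Rpl22l1 by 0.72 and 1.02. Just under the line were Rpl18 at 0.999 and Rpl6 at 0.99. All 7 of these additions were also higher by at least 0.322 at 21% O2.

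The lowest large-subunit members were Rpl7a at -0.12 and -0.01, Rpl37a at -0.06 and 0.04, and Rpl28 at 0.33 and -0.06. Rpl7a was 8.39 and 8.42 in four-factor cells and 8.52 and 8.42 in untransduced fibroblasts. The differences at both oxygen levels were close to each other gene by gene, and the comparisons share no array: Pearson's r over the 81 genes was 0.93, as a description. Probe, slide and sequence are common to both.

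Rplp0 anchors the stalk that recruits elongation factors, and Rplp1 and Rplp2 form its arms. Rplp0 had 10 spots on each array, with means ± SD over spots of 6.03 ± 0.03 and 5.96 ± 0.02 with the 4 factors (21%, then 5% O2) and 5.25 ± 0.04 and 5.24 ± 0.04 without them. The lowest four-factor spot lay at 5.94 and the highest untransduced spot at 5.32. These spots are copies of a single probe on single arrays, so their gap does not measure spread between cultures. A difference beyond the spot error was common, since 73 of 81 members were higher by more than it at 21% O2. By its mean, Rplp0 was higher by 0.77 and 0.72 in four-factor cells. Rplp1 was higher by 0.18 and 0.24 and Rplp2 by 0.05 and 0.19, so by these probes the arms differed less than their anchor. The Rplp0 probe also had a lower signal than those of the arms on every array. Lower signals went with larger differences, as given further on, and the part of this was not tested.

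Paralogues can be followed pair by pair, each within its own probe. Rpl36al exceeded Rpl36a in its four-factor difference by 0.60 and 1.04, Rpl36a itself being higher by 0.39 and 0.48. Rps27l differed by 0.52 and 0.94, against 0.26 and 0.22 for Rps27. Rpl7l1 differed by 0.61 and 0.69, against 0.30 and 0.45 for Rpl7. Rpl22l1 lay only 0.08 and 0.16 above Rpl22, at 0.64 and 0.86. By the brightest probes, the paralogue had the larger four-factor difference in the 4 measured pairs at both oxygen levels. In each pair its probe also had the lower signal, and lower signals went with larger differences, as given further on; the part of this was not tested. The order also depends on the probes compared. The other Rpl7 probes gave 0.67 and 0.97 at 21% and 0.77 and 1.14 at 5% O2, more than the 0.61 and 0.69 of the brightest Rpl7l1 probe. The other Rpl7l1 probe gave 1.34 and 1.71, more than every Rpl7 probe. Rpl3l, the muscle form of Rpl3, was not well above background on any array, while Rpl3 differed by 0.65 and 0.95.

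The start sites of 3 pairs are shown next, to set each start beside that of its partner. Capitals have the meaning given above, and the windows of Rpl22l1 and Rpl36al are already printed.
Rpl22, chr4:152324424-152324453, plus strand: tgcttctggaatgTTCCagctcccactgac
Rps27, chr3:90213631-90213660, minus strand: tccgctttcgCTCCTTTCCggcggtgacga
Rps27l, chr9:66946074-66946103, plus strand: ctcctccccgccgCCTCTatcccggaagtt
Rpl36a, chrX:134585642-134585671, plus strand: cacccaggcaccgCCTataaacttccgttg
Rps27 has a run of 9 bases and Rps27l one of 5. The reverse order holds in Rpl22 with 4 and Rpl22l1 with 10, and Rpl36a and Rpl36al have 3 each.

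**Figure D4:**
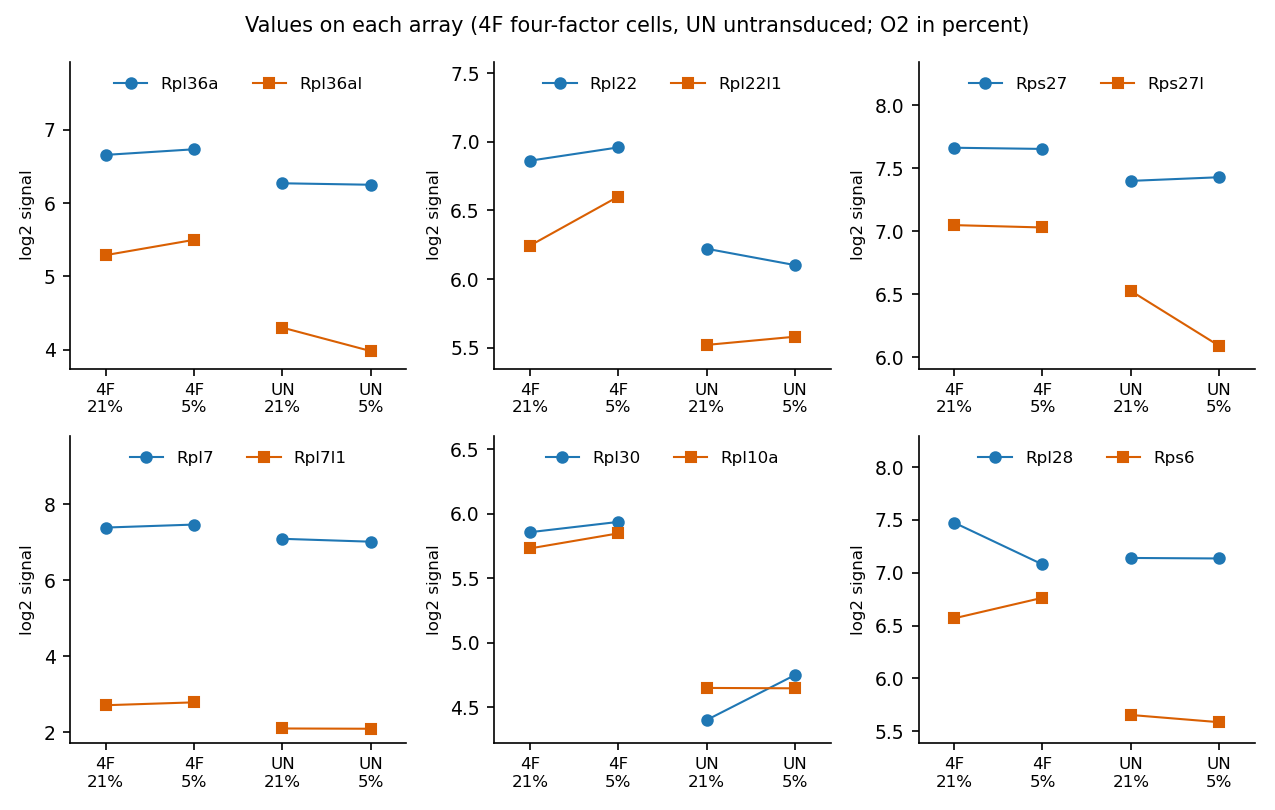
Log2 signal after subtraction of the 75th percentile (vertical axes) of 12 ribosomal protein genes on 4 arrays, 2 genes in each panel, with four-factor cells (4F) on the left and untransduced fibroblasts (UN) on the right. Lines join the oxygen levels of one culture and each gene is read along its own line, since levels of different probes are not comparable. The drop of Rps27l from 6.53 to 6.09 and that of Rpl28 from 7.47 to 7.08 each occur in a single culture.

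An additive limma model over all 4 arrays and 18359 genes, with terms for culture and oxygen, leaves 1 residual degree of freedom. That residual is the gap between the oxygen effects of the cultures. Its standard errors and p-values rest on such gaps over the genes, and not on spread between replicate cultures. The arrays of a culture also share a slide. Passing the culture term, here and in the lists below, thus says nothing about whether a difference would recur in other cultures. For the culture term 33 of 81 members had an adjusted p under 0.05 (Benjamini-Hochberg) and were higher in four-factor cells, against 27.2% of all genes, and 0 were lower, against 22.7%. Without adjustment 42 members (51.9%) passed in either direction, under the 59% of all genes. With quantile normalization 13 members passed upward in limma (16%), also under the share of all genes, 25.7%. The largest estimate was that of Rpl30, 1.32 ± 0.17 (standard error), with a limma adjusted p of 0.0107. By subunit, 11 of 32 small and 22 of 49 large passed.

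For the oxygen term 0 of 18359 genes and 0 of 81 members passed in limma (0% in each direction). At an unadjusted p under 0.05 there were 1399 genes (7.62%) and 0 members, and the smallest adjusted p of a member was 0.834. The count of members was also 0 with normexp correction, where 77 genes were called higher and 100 lower, and with spike-in scaling, where 325 and 223 were. This term averages both cultures, in which members mostly had opposite signs.

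The size of the culture difference moved with the signal of the probe. Over the 81 members Spearman's rho between mean log2 signal and the four-factor difference was -0.78 at 21% and -0.76 at 5% O2, as a description. Members with signals under 6 (14 genes) had medians of 0.78 and 0.97, those from 6 to 7 (24 genes) 0.55 and 0.67, and those over 7 (43 genes) 0.20 and 0.33. Other genes with signals over 7 (56 genes) had medians of 0.26 and 0.39, and those from 6 to 7 (141 genes) 0.27 and 0.44. Other genes under 6 (14712 genes) lay at -0.02 and -0.02. Above 7 the medians of members lay under those of other genes, and below 7 they lay over them.

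Probes of one gene showed the same pattern. For 38 genes with at least 2 probes above background on all arrays, the dimmest probe had a larger four-factor difference than the brightest in 33 of 38 at each oxygen level. The median was 0.41 and 0.50 by the brightest probe and 0.92 and 1.06 by the dimmest. Choosing the probe thus changed the median size from 1.33-fold to 1.89-fold at 21% O2. The part of signal compression, of cross-hybridization and of the probe's place in the message was not tested.

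**Figure D5:**
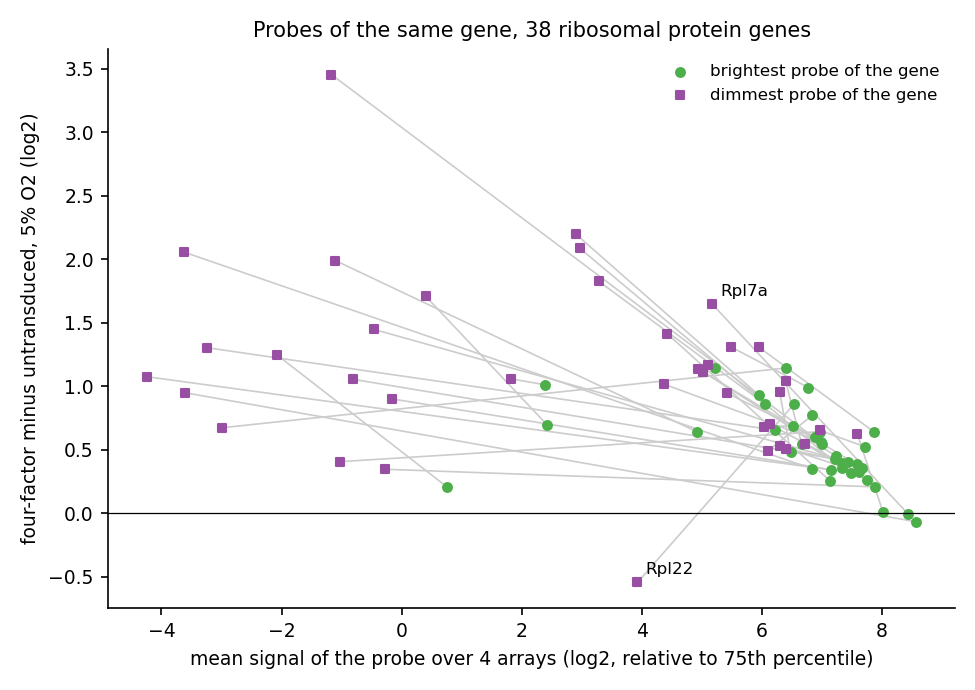
Difference between four-factor and untransduced cells at 5% O2 (vertical axis, log2) against the probe's mean signal over 4 arrays (horizontal axis, log2) for 38 ribosomal protein genes, with the brightest probe of a gene in green joined to its dimmest in purple. In 33 of the 38 genes the purple point lies higher, and the second probe of Rpl22 lies below 0 at -0.55.

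Rpl22, Rpl7a and Rps18 had probes that opposed each other by over 0.5 log2 units between cultures. The brighter Rpl22 probe (mm8, chr4:151173849-151173908) gave 0.64 and 0.86, and the dimmer one (chr4:151177703-151177762) gave -0.64 and -0.55. Both carry the same accession, so the direction given for Rpl22 depends on the probe, and what each probe binds was not tested. For Rpl7a the brightest probe gave -0.12 and -0.01 and the dimmest 1.53 and 1.65. For Rps18 they gave -0.24 and -0.07 against 0.91 and 0.95. Thus Rpl7a and Rps18, among the lowest by their brightest probe, were not lower by every probe, whereas Rps14, Rpl37a and Rpl28 have 1 probe each. For Rps2, also among the lowest, the other probe above background gave 0.40 and 0.63, against -0.05 and 0.01 by the brightest. Rps25 had opposed probes with oxygen in untransduced fibroblasts, at -0.11 and 0.46.

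Rpl10 has probes on 2 chromosomes. Its brightest probe lies on chromosome 13 (mm8, 62394783 to 62394842), and its other probe on chromosome X (70525479 to 70525538), where the gene lies. The first gave a four-factor difference of 0.46 and 0.54, the second one of 0.92 and 1.04. What the first probe binds was not tested.

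Genes that cause Diamond-Blackfan anaemia, an inherited failure of red cell production, include 14 of the members. All 14 were higher in four-factor cells at both oxygen levels (49% and 49.3% of all genes), with medians of 0.48 and 0.53. Of the 14, 5 passed the limma culture term upward (adjusted p under 0.05), against 27.2% of all genes. Rps26 was the highest at 0.93 and 1.12 and Rps19 the lowest at 21% O2, at 0.08. The 8 members known to bind Mdm2, the ligase of p53, had medians of 0.28 and 0.37. All 8 were higher, and 1, Rps27l, passed upward, against 27.2% of all genes. Rpl5 and Rpl11, the best studied of them, were higher by 0.18 and 0.18 at 21% and by 0.38 and 0.32 at 5% O2. Against 0.46 and 0.52 over all members, the medians of the first list lay close by and those of the second lower.

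Ribosomal proteins that carry other names were treated apart. Fau and Rack1 (Gnb2l1 on the array) were higher in four-factor cells by 0.11 and 0.27 at 21% O2 and by 0.12 and 0.38 at 5% O2. Neither passed the limma culture term.

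Messages of 14 other genes with terminal oligopyrimidine tracts were treated as a separate list. All 14 were higher in four-factor cells (49% and 49.3% of all genes at 21% and 5% O2), with medians of 0.45 and 0.64. Of the 14, 5 passed the limma culture term upward, against 27.2% of all genes. Npm1, a nucleolar chaperone, was higher by 1.16 and 1.49, and the elongation factor Eef1a1 by 0.10 and 0.12. With oxygen their medians were 0.08 in four-factor cells and -0.07 in untransduced ones, with Hnrnpa1 highest in the first at 0.53.

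Most of the translation factors that passed were higher in four-factor cells. Of 36 initiation factors 21 passed the culture term upward and 1 downward (27.2% and 22.7% of all genes), with medians of 0.59 and 0.77. Eif2s1, the alpha subunit of the factor that brings the initiator tRNA, was higher by 1.53 and 1.90, and Eif2b3, part of its exchange factor, was lower at -1.37 and -1.32. Of 13 genes listed as elongation and termination factors 8 passed upward (27.2% of all genes). Their list had medians of 0.59 and 0.90 over the 12 measured in both cultures. Eef1e1 was highest on that list at 1.49 and 2.09, and the function of the listed genes was not checked here.

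Assembly factors and chaperones of ribosomal proteins differed more. Of 29 such genes 22 passed the limma culture term upward and 1 downward (27.2% and 22.7% of all genes). The medians of the 29, 1.16 and 1.49, exceeded those of the ribosomal proteins at both oxygen levels. Dkc1, the pseudouridine synthase of ribosomal RNA, was higher by 2.95 and 2.77. Nop56, of the methylation complex, was higher by 1.99 and 2.59, and Grwd1, a chaperone of Rpl3, by 1.94 and 2.50. Tsr2, the chaperone of Rps26, was lower at -0.74 and -0.67, although Rps26 itself was among the highest members. With oxygen these genes had medians of 0.12 in four-factor cells and -0.35 in untransduced ones.

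Mitochondrial ribosomal proteins, which build the separate ribosome of that organelle, numbered 75. Their medians were 0.63 and 0.84, and 74 and 75 were higher in four-factor cells (49% and 49.3% of all genes). Of them 48 passed the limma culture term upward and 0 downward, against 27.2% and 22.7% of all genes. Mrpl15 was highest at 1.65 and 2.05. Their oxygen medians were 0.07 in four-factor cells and -0.13 in untransduced ones, the same signs as in the cytosolic set. The medians of the 2 sets were not compared by a test.

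Genes that control the translation of these messages had no common direction. Of 18, 4 passed the culture term upward and 2 downward (27.2% and 22.7% of all genes), with medians of 0.20 and 0.27. Larp1, which binds the oligopyrimidine tract, was higher in four-factor cells by 0.84 and 1.01, and its relative Larp1b by 1.41 and 1.96. Deptor, an inhibitor of mTOR, was lower at -1.97 and -2.63, and Tsc1, a brake on mTOR, at -1.03 and -1.48. Ddit4, an mTOR inhibitor known to respond to low oxygen, was higher at 5% O2 by 0.51 in four-factor cells and 0.34 in untransduced ones.

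Other cells' markers also differed between the cultures. Of 14 fibroblast markers 12 were lower in four-factor cells at both oxygen levels, with summed log2 levels of 9.84 and 9.63 against 10.57 and 10.53. Of 6 epithelial markers 5 were above background with the 4 factors at either oxygen level, and 2 and 5 without them at 21% and 5% O2. Of 6 pluripotency markers 3 and 5 were above background with the factors and 1 without them at each oxygen level, and of 5 erythroid markers 2 and 0. The summed log2 level of the pluripotency markers went the other way, at -1.49 and -1.17 with the factors against -0.002 and 0.41 without them. Dppa5a, the only 1 of them measured in both cultures, differed by -1.78 and -2.25. The part of all these markers in the ribosomal protein values was not tested.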

How the data were processed

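Scans of array design 014868 were read by Feature Extraction 9.5.3.1, per the file headers. Per the same headers the authors' deposited processed intensity has the background removed within its own array and no scaling between arrays. The deposited value table holds log2 values; 99.8% lay within 0.001 of log2 of that intensity less its 75th percentile. RNA was labelled by a Quick Amp protocol, version 5.7, per the labels.

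That log2 value was recomputed after dropping outlier spots and averaging replicate spots. A gene was given by its brightest probe over the arrays and counted where both arrays were well above background. Probe positions are on mm8, per the file headers. Of 136 member probes, 115 had an accession in the RefSeq gene table. Fits used limma 3.58.1 (R 4.3.3), lmFit and eBayes, on genes above background on at least 2 arrays. They were also run on simulated data with equal oxygen effects in both cultures. That run checked the code and not the error of the fit in these arrays.

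Alternatives were 3 other scalings, a 75th percentile over probes above background on all arrays, normexp (offset 50), no filter, other probe choices, kept outliers and the deposited values. The members and lists were chosen with earlier results of these data known. Named members were those at least 2-fold apart, the 5 furthest per direction and comparison, the 5 most opposed with oxygen, the stalk proteins, Rpsa, paralogue pairs, dim members and members with opposed probes. Of the lists, up to 2 genes furthest in each direction were named; Rpl5, Rpl11, Rpl6, Rpl10, Larp1 and Grwd1 were named after their values were seen. Some genes that met these rules are not reported here. Protein sequences were not used here.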

Additional observations from a re-analysis of the deposited data

Results flagged for a closer look

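In 11 of 34 named and measured members the oxygen difference had opposite signs in the 2 cultures, each side larger than the spot error, and each was higher at 5% O2 in four-factor cells and lower at 5% O2 in untransduced fibroblasts. With 1 array per condition the difference between cultures was not tested. The rules that named members used these same oxygen differences in part, so the share among named members follows in part from their choice. Over all 81 members such opposite signs held for 17 (21%), against 15.2% of all genes in that direction. In either direction they held for 21% of members and 28.5% of all genes. Of the 11 named members, 5 met the rule for the most opposed members, and Rpl37 was named for its low value in untransduced fibroblasts. With quantile normalization 7 of the 11 kept opposite signs and the gaps of Rpl7 and Rps18 were no longer above 0; with cyclic loess 4 did. By the dimmest probe 8 did. The gap between the 2 oxygen differences was 0.53 log2 units for Rpl36al, 0.32 for Rpl29 and 0.30 for Rpl3. It was 0.26 for Rps6, 0.26 for Rpl27, 0.25 for Rpl37 and 0.22 for Rpl24. It was 0.22 for Rpl22, 0.19 for Rps14, 0.17 for Rps18 and 0.15 for Rpl7.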

How the results depend on the processing

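No paired analysis was possible because each condition had 1 array and the labels carry no replicate numbers. Precision is limited by the number of arrays. Medians of members are given in log2 units, in the order oxygen effect with the 4 factors, oxygen effect without them, four-factor difference at 21% and at 5% O2, and difference between the oxygen effects. With spike-in scaling they were 0.20, -0.14, 0.86, 1.14 and 0.34, with 5, 0, 78, 81 and 47 members at least 0.322 higher and 26 and 52 at least 2-fold higher between cultures. With quantile normalization the second reversed to 0.0358 and the last to -0.0084, and the culture medians were 0.25 and 0.23. Members at least 0.322 higher then numbered 0 with oxygen in four-factor cells, 32 between cultures at 5% O2 and 1 for the difference between oxygen effects, and 1 was 2-fold higher at each oxygen level. With cyclic loess the second reversed to 0.0752, the culture medians were 0.21 and 0.17 and the last 0.0072, with 31 and 31 members at least 0.322 higher between cultures, 1 and 1 at least 2-fold, and 1 for the difference between oxygen effects. By subunit, the oxygen median in untransduced fibroblasts reversed to 0.0810 (small) and 0.0674 (large) with loess and to 0.0360 and 0.0358 with quantile normalization, and the small-subunit difference between oxygen effects to -0.0232 and -0.0457. The dimmest probe of each gene, chosen after seeing the data, gave culture medians of 0.66 and 0.73 with 17 and 29 members at least 2-fold higher, 2 and 2 members at least 0.322 higher with oxygen, and 7 for the difference between oxygen effects. The mean of all probes gave 0.55 and 0.69, with 8 and 16 at least 2-fold higher and 8 for the difference between oxygen effects. Rpl22 reversed to -0.64 and -0.55 by its dimmest probe and, at 21% O2, to -0.0010 by the mean of its probes. A 75th percentile over probes above background on all arrays gave 0.46 at 5% O2, and normexp and accession-matched probes each gave 5 members at least 2-fold higher at 21% O2. The limma culture term called 18 members higher with genes above background on any array, 13 with quantile normalization and 75 with spike-in scaling (22.2%, 16% and 92.6% of members, against 20.2%, 25.7% and 48.8% of all genes). The cause of these changes was not tested. Kept outlier spots and the deposited values left each median and count over all members within 1.5 times its value or the spot error. No filter on dim probes did so for medians and counts of higher members, and added 1 member, Rpl3l, to the members 2-fold lower in each comparison of 2 arrays.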
